A study of Mus musculus with 24 samples.

Results

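The data described here are the change of the lipopolysaccharide (LPS) response of mouse bone marrow-derived macrophages between 1 h and 18 h. For each gene the difference between LPS and unstimulated cells at 18 h was set against the same difference at 1 h, in 12 of the 24 RNA sequencing libraries of the study. The 4 groups, of 3 libraries each, were LPS for 18 h, unstimulated for 18 h, LPS for 1 h and unstimulated for 1 h. All cells were wild-type C57BL/6 bone marrow cells grown for 7 days in CSF-1, the growth factor of macrophages, and CSF-1 stayed in the medium of LPS and unstimulated cells alike. The labels give LPS at 20 or 100 ng/mL and do not say which dose went with LPS alone. They do not say whether the 3 libraries of a group came from separate animals, so p-values measure no more than the variation among libraries, possibly a technical one. The other 12 libraries, of LPS with interferon gamma and of IL-4, entered only an alternative fit.

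LPS is the outer membrane lipid of Gram-negative bacteria. Macrophages bind it with CD14, MD-2 (encoded by Ly96) and TLR4, and the receptor signals through the adaptor MyD88 to NF-kB and the MAP kinases and, from endosomes, through TRIF to IRF3. Genes whose promoters are already open are transcribed within minutes, many of them encoding inhibitors of the same pathway and short-lived mRNAs that decay through AU-rich stretches in the 3′ untranslated region (3′UTR). Interferon beta made by the cells then acts back on them through its receptor and STAT factors, so that a further set of genes follows later. A single time point cannot tell these phases apart, which is what a contrast of 2 times addresses.

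Libraries held 4181890 to 6513797 counts. The 8 macrophage markers examined, among them Csf1r, Lyz2 and Cd68, were detected in all groups and summed to 24800 to 26400 CPM in LPS cells at 18 h, 15000 to 16900 CPM in unstimulated cells at 18 h, 18100 to 19200 CPM in LPS cells at 1 h and 15600 to 18600 CPM in unstimulated cells at 1 h. Expression is given as CPM, counts scaled to 1000000 per library after TMM scaling. Markers of T, B, NK, dendritic and mast cells summed to at most 8.75 CPM in any library, and Cd3e, Cd3g, Cd8a, Gzma, Hbb-bs and Gata1 had no read. Replicate 2 of LPS at 18 h stood apart from the other 2 libraries of its group, with a chi-square of 8.93 and 11.0 per gene against 2.37 between those 2 and 1.61 to 3.53 within the other groups, and the counts of genes and classes below are also given without it. More genes had a read in replicate 3 of the unstimulated cells at 18 h (19108) than in the other 11 libraries (15450 to 16727).

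Many of the measured genes responded to LPS differently at 18 h than at 1 h. Of 12335 genes tested, 6576 (53.3%) had a difference between the responses at an adjusted p below 0.05 (edgeR quasi-likelihood test), 3333 (27.0%) with a higher and 3243 (26.3%) with a lower log2 response at 18 h. Without replicate 2 of LPS at 18 h these counts were 3377 and 3486. They were 2899 and 3136 with DESeq2, and 2545 and 2588 at an adjusted p below 0.01 (edgeR). The share of genes called thus depends on the tool and the limit. With scaling to the library size alone they were 2243 and 4399, and the median difference over all genes was -0.21 on the log2 scale instead of 0.03. LPS at 18 h changed 7672 genes (62.2%), 3869 higher (31.4%) and 3803 lower (30.8%), and LPS at 1 h changed 2488 genes (20.2%), 1171 higher (9.49%) and 1317 lower (10.7%). With library-size scaling the split was 1947 higher and 6738 lower at 18 h, and 824 higher and 3062 lower at 1 h. Bulk libraries do not separate fewer cells of a kind from less RNA in each cell.

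The changes with time lay mostly in the LPS cells. LPS cells differed between 18 h and 1 h in 7924 genes (64.2%), 3992 higher (32.4%) and 3932 lower (31.9%) at 18 h, and unstimulated cells differed in 1179 (9.56%), 368 higher (2.98%) and 811 lower (6.57%). The count for unstimulated cells rests on single libraries: without replicate 1 of the unstimulated cells at 18 h it was 118 higher and 406 lower, and without replicate 2 of LPS at 18 h it was 753 higher and 1148 lower. Of the 6576 genes, 6161 (93.7%) also differed between LPS cells at 18 h and LPS cells at 1 h, whereas 884 (13.4%) differed between unstimulated cells at the 2 times. The remaining 415 genes had no called difference between LPS cells at 18 h and at 1 h, and 146 of these differed between the unstimulated groups. These comparisons share libraries with the difference of responses and are no independent evidence of it. Of the genes called at both times, 1080 moved the same way and 552 moved opposite ways.

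Genes were sorted by when they responded, a response being an adjusted p below 0.05 with at least a 2-fold change. Transient genes responded at 1 h and not at 18 h, with a called difference that undid the early change: 160 were higher at 1 h (1.30% of genes tested) and 241 were lower (1.95%). Sustained genes responded the same way at both times, 287 upward (2.33%) and 56 downward (0.454%). Late genes responded at 18 h and not at 1 h, with a called difference in that direction, and formed the largest class, with 1012 higher (8.20%) and 1450 lower (11.8%). Opposite genes responded both times in contrary directions, 38 higher at 1 h and lower at 18 h (0.308%) and 28 the other way (0.227%). Without replicate 2 of LPS at 18 h there were 170 and 237 transient, 291 and 58 sustained, 994 and 1494 late, and 36 and 26 opposite genes, each pair given as higher and lower at the first response. Since the classes were cut from these same tests, their sizes and fold changes are descriptions. The transient and late classes also depend on the 2-fold limit, and a gene of either could still have a smaller called change at the other time: 59 of the 160 transient raised genes were still called higher at 18 h, and 29 were called lower.

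**Figure D1:**
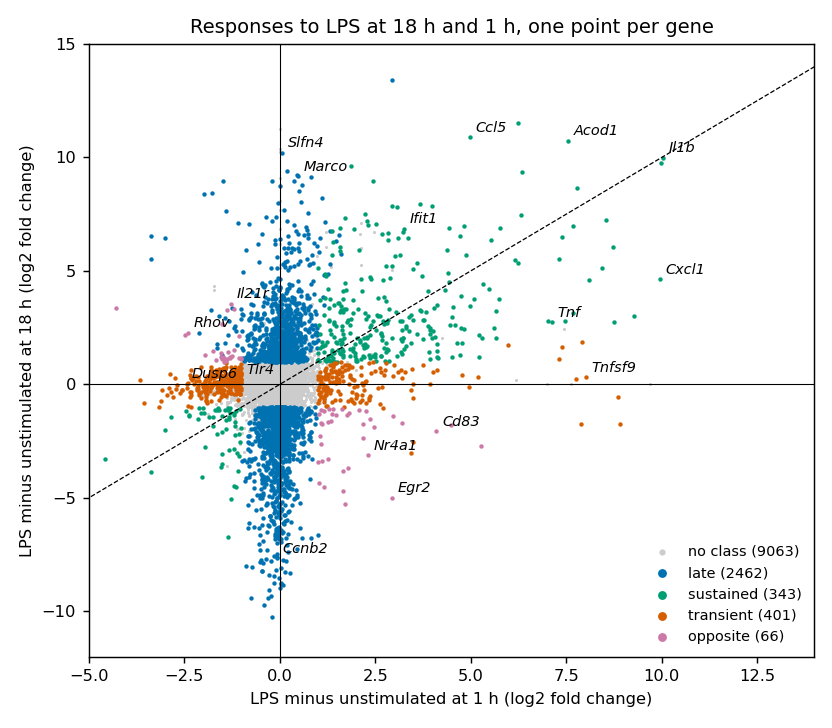
Each point is 1 of 12335 genes. The vertical axis is the log2 fold change of LPS against unstimulated cells at 18 h and the horizontal axis the same at 1 h. Colours mark the 4 classes, with 2462 late, 343 sustained, 401 transient and 66 opposite genes, and the dashed line marks equal responses. Late genes lie along the vertical axis, transient genes along the horizontal axis, and Tnf and Cxcl1 lie below the dashed line while Ccl5 and Acod1 lie above it.

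Cytokines and chemokines led the early phase, and they parted by 18 h. Tnf, the cytokine that starts local inflammation, had 123, 139 and 109.7 CPM in LPS cells, against 21.0, 15.8 and 19.0 CPM in unstimulated cells at 18 h. At 1 h it had 4897, 5008 and 5116 CPM in LPS cells, against 44.2, 32.1 and 29.7 CPM in unstimulated cells. LPS cells were above unstimulated cells at both times with no overlap, and LPS cells at 18 h were far below LPS cells at 1 h. The log2 response at 18 h minus that at 1 h was -4.40 ± 0.19 (approximate standard error, n = 3 libraries in each of 4 groups; edgeR, adjusted p = 8.61e-14). Tnfsf9, the ligand of the costimulatory receptor 4-1BB, had 7.81, 8.79 and 7.20 CPM in LPS cells, against 7.27, 5.18 and 6.59 CPM in unstimulated cells at 18 h, where LPS and unstimulated libraries overlapped. It had 1345, 1231 and 1370.5 CPM in LPS cells, against 5.79, 4.05 and 5.37 CPM in unstimulated cells at 1 h, so that the early increase was no longer present, with a difference of -7.69 ± 0.24 (adjusted p = 2.39e-15). Il10, the main anti-inflammatory cytokine of macrophages, had a difference of -3.40 ± 0.33, with 8.15 ± 2.06 CPM in LPS cells and 3.23 ± 0.265 CPM in unstimulated cells at 18 h and 222 ± 29.7 CPM in LPS cells and 8.49 ± 1.63 CPM in unstimulated cells at 1 h (mean ± SD, n = 3 each).

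Among 24 cytokine genes tested, 8 had a lower (33.3%) and 5 a higher (20.8%) response at 18 h, against 26.3% and 27.0% of all genes. The median difference was -0.56 against 0.03 over all genes. These shares of all genes are also the background for the counts of each list below. By class, 13 of the 24 were sustained upward, 3 were transient and 4 were late. Il1b and Il1a, which encode the interleukin-1 cytokines and overlap an annotated transcript on the other strand, had no called difference between the times. Il1b had 747, 918 and 704 CPM in LPS cells, against 0.346, 0 and 1.93 CPM in unstimulated cells at 18 h and 1599.6, 1329 and 1809 CPM in LPS cells, against 2.96, 0.450 and 0.768 CPM in unstimulated cells at 1 h. Il1a had 451, 477 and 408 CPM in LPS cells, against 0.346, 0 and 1.13 CPM in unstimulated cells at 18 h and 448, 424 and 476 CPM in LPS cells, against 0.423, 0.600 and 0.192 CPM in unstimulated cells at 1 h. Both were far above the unstimulated cells at each time with no overlap. With few counts in unstimulated cells the errors of the difference were wide, -0.06 ± 1.30 for Il1b and -0.20 ± 0.74 for Il1a (adjusted p = 0.976 and 0.834).

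Several cytokine genes were so low in a group that no fold of the responses is given. Csf2, which encodes the growth factor GM-CSF, had 0, 0 and 0 CPM in LPS cells at 18 h and 19.2, 18.0 and 19.0 CPM in LPS cells at 1 h, with no read in the 6 unstimulated libraries. Ifnb1, the interferon beta gene, had 1.27, 0.429 and 0.583 CPM in LPS cells at 18 h and 29.8, 24 and 24.9 CPM in LPS cells at 1 h, against 0, 0 and 0 and 0.141, 0 and 0 CPM in unstimulated cells at 18 h and 1 h. Lif, a cytokine of the IL-6 family, had 0.182, 0 and 0.194 CPM in LPS cells at 18 h and 24.8, 26.5 and 32.5 CPM in LPS cells at 1 h. All 3 genes were high in LPS cells at 1 h and near or at 0 in LPS cells at 18 h. Csf2 and Ifnb1 were also near or at 0 in unstimulated cells. Only LPS cells at 1 h could carry Csf2 and Ifnb1 through the filter on low counts. A high level there was thus a condition of testing them and is no result. Il6 was low at both times, with 8.72, 12.4 and 7.78 CPM in LPS cells at 18 h and 3.72, 6.17 and 4.06 CPM in LPS cells at 1 h. Sele, which encodes an adhesion molecule best known from endothelium, followed the same course as Csf2 in LPS cells, with 0, 0 and 0 CPM at 18 h and 37.0, 31.5 and 40.1 CPM at 1 h.

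Most chemokines were raised at both times and differed in which time was higher. Of 16 tested, 13 were sustained upward, 1 was transient and 1 was late. All 16 tested were higher with LPS at 18 h and 14 were higher at 1 h, while 6 had a lower and 7 a higher response at 18 h. The neutrophil attractant Cxcl1 had 6.54, 10.5 and 4.86 CPM in LPS cells, against 0.173, 0.305 and 0.322 CPM in unstimulated cells at 18 h and 473, 537 and 459 CPM in LPS cells, against 0.988, 0.150 and 0.192 CPM in unstimulated cells at 1 h, a difference of -5.32 ± 1.25 (adjusted p = 0.00125). Cxcl2, with the same receptor, had 103, 121 and 117 CPM in LPS cells, against 1.56, 1.52 and 1.93 CPM in unstimulated cells at 18 h and 2377, 2451 and 2362 CPM in LPS cells, against 7.76, 3.30 and 5.76 CPM in unstimulated cells at 1 h. For Cxcl2 the difference was -2.66 ± 0.39. The chemokines Ccl3 and Ccl4 had differences of -3.99 ± 0.14 and -3.63 ± 0.16, and Ccl22 had -1.14 ± 0.32. Ccl5, an attractant of T cells and monocytes, moved the other way: it had 3502, 4696 and 3359.8 CPM in LPS cells, against 1.39, 1.22 and 3.38 CPM in unstimulated cells at 18 h and 77.3, 70.8 and 75.7 CPM in LPS cells, against 2.54, 1.80 and 2.69 CPM in unstimulated cells at 1 h, a difference of 5.91 ± 0.48 (adjusted p = 1.29e-09). LPS cells at 18 h were thus above LPS cells at 1 h in every library for Ccl5 and below them in every library for Cxcl1 and Cxcl2. The difference of Cxcl1 was -6.69 without replicate 1 of the unstimulated cells at 1 h, and that of Ccl5 was 6.51 without replicate 3 of the unstimulated cells at 18 h.

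The monocyte attractant Ccl2 was raised at both times, with 834, 918 and 827 CPM in LPS cells, against 51.8, 55.6 and 42.0 CPM in unstimulated cells at 18 h and 745, 799 and 797 CPM in LPS cells, against 45.7, 58.7 and 55.1 CPM in unstimulated cells at 1 h. Its difference was 0.23 ± 0.14 (adjusted p = 0.182). Cxcl10, which attracts T cells through CXCR3, had 386, 454 and 367 CPM in LPS cells, against 2.77, 2.13 and 1.93 CPM in unstimulated cells at 18 h and 313, 328 and 287 CPM in LPS cells, against 8.47, 1.35 and 0.959 CPM in unstimulated cells at 1 h, and its difference of 1.14 ± 0.55 did not pass the test (adjusted p = 0.0871). That value turned to -0.55 without replicate 1 of the unstimulated cells at 1 h, where Cxcl10 was highest among unstimulated libraries. Cxcl9, another ligand of CXCR3, was a late gene, with 137, 159 and 148 CPM in LPS cells at 18 h and 0.207, 0.457 and 0 CPM in LPS cells at 1 h.

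**Figure D2:**
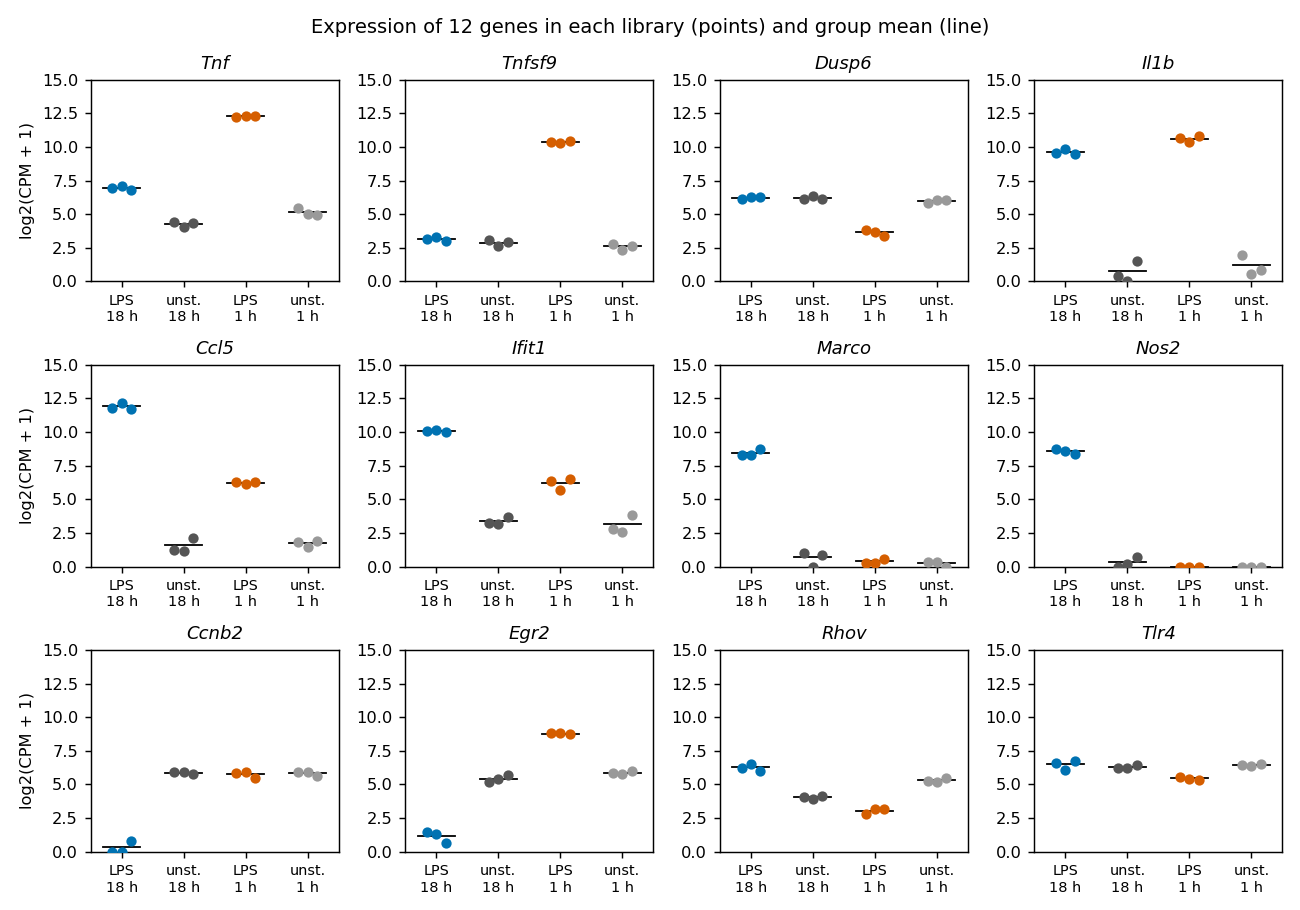
Each panel is 1 gene, with the log2 of CPM plus 1 for each of the 3 libraries of a group as points and the group mean as a line. Groups run from LPS at 18 h and unstimulated at 18 h to LPS at 1 h and unstimulated at 1 h. Tnf and Tnfsf9 peaked in LPS cells at 1 h, Il1b was high in LPS cells at both times, Ccl5, Ifit1, Marco and Nos2 were highest in LPS cells at 18 h, Ccnb2 and Egr2 were lowest there, and Dusp6, Rhov and Tlr4 were lowest in LPS cells at 1 h.

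Immediate-early transcription factors, which relay growth factor and stress signals within minutes, mostly dropped back or below their unstimulated level. Of 27 tested, 18 were higher and 1 was lower with LPS at 1 h, against 10 higher and 10 lower at 18 h. The difference was lower for 16 and higher for 5, with a median of -1.39. Egr2, a zinc finger factor of the EGR family, had 1.82, 1.5 and 0.583 CPM in LPS cells, against 35.0, 41.7 and 50.3 CPM in unstimulated cells at 18 h. At 1 h it had 445, 449 and 425 CPM in LPS cells, against 57.9, 53.1 and 62.2 CPM in unstimulated cells. LPS cells were below unstimulated cells at 18 h and above them at 1 h, with no overlap either time, and the difference was -7.93 ± 0.24 (adjusted p = 2.13e-15). Egr1 had a difference of -5.47 ± 0.32, Nr4a1, an orphan nuclear receptor, -5.42 ± 0.38, and Myc, the growth regulator, -4.42 ± 0.15, all 3 higher with LPS at 1 h and lower at 18 h. Junb stayed higher with LPS at both times, with 279 ± 18.4 CPM in LPS cells and 116 ± 10.2 CPM in unstimulated cells at 18 h and 1793 ± 39.6 CPM in LPS cells and 287 ± 17.6 CPM in unstimulated cells at 1 h. Fos had no called difference, with 107, 102 and 99.8 CPM in LPS cells, against 112, 104 and 123 CPM in unstimulated cells at 18 h and 118, 98.0 and 107 CPM in LPS cells, against 106, 105 and 124 CPM in unstimulated cells at 1 h and a difference of -0.08 ± 0.13 (adjusted p = 0.614). Jun and Atf3 had higher responses at 18 h, by 0.63 and 0.63. Ier3, an early gene of NF-kB, was raised at both times, with 51.4, 59.8 and 53.1 CPM in LPS cells, against 3.12, 3.50 and 2.41 CPM in unstimulated cells at 18 h and 85.8, 67.6 and 98.3 CPM in LPS cells, against 4.09, 3.30 and 5.18 CPM in unstimulated cells at 1 h.

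Most genes of the NF-kB family and its inhibitors were raised at both times, and none had a higher response at 18 h. All 11 genes tested were higher at 1 h, 10 were higher and 1 was lower at 18 h, and 7 had a lower response at 18 h, while 4 had no called difference. Nfkbia, which encodes the inhibitor IkB-alpha and is itself an NF-kB target, had 347, 421 and 365 CPM in LPS cells, against 45.9, 51.3 and 46.8 CPM in unstimulated cells at 18 h and 1999, 2026 and 1972 CPM in LPS cells, against 89.1, 77.5 and 95.2 CPM in unstimulated cells at 1 h. Its difference was -1.55 ± 0.13 (adjusted p = 2.37e-09). Nfkbiz, encoding the nuclear cofactor IkB-zeta, had a difference of -4.54 ± 0.22, and Rel, encoding the subunit c-Rel, had -2.72 ± 0.27. Nfkbid, which encodes another nuclear IkB protein and was the member lower at 18 h, had 13.3 ± 2.66 CPM in LPS cells and 21.1 ± 0.150 CPM in unstimulated cells at 18 h and 163 ± 10.4 CPM in LPS cells and 31.7 ± 7.38 CPM in unstimulated cells at 1 h.

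Feedback inhibitors did not move as a block. Of 21 tested, 8 had a higher and 8 a lower response at 18 h, with a median difference of 0.01. Tnfaip3, encoding the ubiquitin editor A20, had 157, 130.1 and 152 CPM in LPS cells, against 24.4, 26.4 and 28.1 CPM in unstimulated cells at 18 h and 2179, 2050.1 and 2414 CPM in LPS cells, against 43.9, 40.8 and 52.0 CPM in unstimulated cells at 1 h. For Tnfaip3 the difference was -3.13 ± 0.15. Zfp36, encoding tristetraprolin, the protein that binds AU-rich stretches, had a difference of -1.84 ± 0.14, with 252 ± 11.4 CPM in LPS cells and 107 ± 12.4 CPM in unstimulated cells at 18 h and 1364 ± 149 CPM in LPS cells and 162 ± 18.2 CPM in unstimulated cells at 1 h. Both were raised at each time and less so at 18 h. Socs3, an inhibitor of IL-6 family receptors, had 500.5, 527 and 512 CPM in LPS cells, against 2.08, 0.609 and 1.13 CPM in unstimulated cells at 18 h and 1351, 1231 and 1493 CPM in LPS cells, against 9.17, 2.40 and 6.91 CPM in unstimulated cells at 1 h and no called difference (0.89 ± 0.47, adjusted p = 0.12). Socs1, an inhibitor of interferon receptors, had a difference of 4.85 ± 0.39, and Irak3, an inactive kinase that blocks the MyD88 pathway, had 2.56 ± 0.14, both higher at 18 h.

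Among 14 MAP kinase phosphatases and ERK pathway inhibitors, 8 had a lower and 2 a higher response at 18 h. Dusp1, which inactivates p38 and JNK, had a difference of -0.82 ± 0.12, Dusp2 -2.46 ± 0.24 and Dusp5 -2.71 ± 0.22. Dusp6, which inactivates ERK, ran against them: it had 67.8, 78.4 and 77.8 CPM in LPS cells, against 70.8, 79.1 and 68.0 CPM in unstimulated cells at 18 h, where the libraries overlapped, and 13.0, 12.1 and 9.40 CPM in LPS cells, against 57.4, 64.7 and 67.2 CPM in unstimulated cells at 1 h, where LPS cells were lower in every library. Its difference was 2.48 ± 0.17 (adjusted p = 7.29e-11).

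In the receptor pathway 13 of 23 genes were higher and 2 lower with LPS at 1 h, against 18 higher and 1 lower at 18 h. Of these genes, 10 had a higher and 2 a lower response at 18 h, and the median difference was 0.25. That split moved to 8 and 6 with library-size scaling. Tlr4 had 95.4, 65.6 and 108 CPM in LPS cells, against 73.6, 75.7 and 84.2 CPM in unstimulated cells at 18 h and 46.5, 41.1 and 40.4 CPM in LPS cells, against 85.8, 83.2 and 92.7 CPM in unstimulated cells at 1 h. It fell with LPS at 1 h and did not respond by 2-fold at 18 h, a difference of 1.23 ± 0.18 (adjusted p = 9.87e-06). Ly96 had a difference of 1.28 ± 0.25, Myd88 0.96 ± 0.12 and Ikbke, a kinase of the IRF3 branch, 1.70 ± 0.15, whereas Cd14 had -0.46 ± 0.13, raised at both times.

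Interferon-response genes were mostly late. All 32 tested had a higher response at 18 h, with a median log2 response of 4.08 at 18 h and 0.27 at 1 h, and 27 of them were late and 5 sustained. Of these, 6 were already called higher at 1 h and 2 lower. Ifit1, which binds foreign RNA, had 1099.8, 1119 and 1007 CPM in LPS cells, against 8.49, 7.77 and 11.6 CPM in unstimulated cells at 18 h and 83.1, 51.4 and 89.1 CPM in LPS cells, against 6.07, 4.80 and 13.6 CPM in unstimulated cells at 1 h, with LPS libraries above unstimulated ones at both times. Its difference was 3.60 ± 0.37 (adjusted p = 4.74e-08). Isg15, a ubiquitin-like modifier, had 955, 1233 and 895 CPM in LPS cells, against 14.2, 11.0 and 12.7 CPM in unstimulated cells at 18 h and 81.4, 71.9 and 85.8 CPM in LPS cells, against 10.2, 8.86 and 14.8 CPM in unstimulated cells at 1 h. For Isg15 the difference was 3.50 ± 0.24. Ifit1 and Isg15 both fell in the sustained class. Irf7, the factor that amplifies interferon production, had 3156, 3831 and 3162 CPM in LPS cells, against 34.3, 32.0 and 44.4 CPM in unstimulated cells at 18 h and 48.4, 26.5 and 45.7 CPM in LPS cells, against 29.9, 25.4 and 49.9 CPM in unstimulated cells at 1 h, with overlapping libraries at 1 h only. Its difference was 6.30 ± 0.29 (adjusted p = 2.5e-13). The antiviral genes Rsad2 and Mx1 had differences of 5.26 ± 0.31 and 7.08 ± 0.28, and Stat2, a factor of the interferon response, had 4.17 ± 0.15. Slfn4, a member of the Schlafen family, had a difference of 10.15 ± 0.54, with 1470.4, 1284 and 1352 CPM in LPS cells, against 1.21, 1.07 and 1.13 CPM in unstimulated cells at 18 h and 0.827, 1.60 and 1.27 CPM in LPS cells, against 1.13, 0.901 and 1.54 CPM in unstimulated cells at 1 h. Slfn4 could pass the filter on low counts only through LPS cells at 18 h, so a high level there was a condition of testing it.

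The guanylate-binding proteins and immunity-related GTPases attack vacuoles that hold pathogens. Of 15 listed, 13 were tested, and all 13 had a higher response at 18 h. Their median response was 5.87 at 18 h and -0.07 at 1 h. A member such as Iigp1 could pass the filter on low counts only through LPS cells at 18 h. For such members a high level there was a condition of testing, so the count is partly set by the filter. Iigp1 had 146, 172 and 152 CPM in LPS cells, against 0.866, 1.22 and 0.322 CPM in unstimulated cells at 18 h and 0.413, 0.685 and 0.254 CPM in LPS cells, against 0.141, 0.150 and 0.576 CPM in unstimulated cells at 1 h. Tgtp1 and Tgtp2 had differences of 7.86 ± 0.62 and 8.20 ± 0.51, though they are near-identical copies whose reads the authors' counting could have divided between them, and Tgtp1 had 8.49 without replicate 3 of LPS at 1 h. Interferon-regulatory, STAT and BATF factors were mixed, 11 of 19 higher and 5 lower. Irf1, an early target of NF-kB, had a difference of -1.66 ± 0.11, Irf4 -4.34 ± 0.45, Irf8 0.98 ± 0.11 and Batf 3.67 ± 0.52.

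Effector enzymes and acute-phase proteins were mostly raised at 18 h, 12 of them sustained and 6 late. Of 24 tested, 12 had a higher and 6 a lower response at 18 h. Acod1, whose enzyme makes itaconate, had 1946, 2037 and 1647 CPM in LPS cells, against 0.520, 0.609 and 2.09 CPM in unstimulated cells at 18 h and 370.0, 289.8 and 390.0 CPM in LPS cells, against 3.25, 0.901 and 1.15 CPM in unstimulated cells at 1 h, a difference of 3.18 ± 0.58 (adjusted p = 9.97e-05). That value was 2.33 without replicate 1 of the unstimulated cells at 1 h and 4.07 without replicate 3 of the unstimulated cells at 18 h. Saa3, an acute-phase apolipoprotein, had 19709, 25978 and 17576 CPM in LPS cells, against 0, 0.152 and 5.47 CPM in unstimulated cells at 18 h and 3.93, 1.37 and 2.29 CPM in LPS cells, against 0.423, 0.300 and 0.192 CPM in unstimulated cells at 1 h. Its difference was 10.49 ± 2.60, with 6 to 35 counts in each of the other 3 groups. It was 14.68 without replicate 3 of the unstimulated cells at 18 h, which held nearly all reads of that group, and 12.69 with limma-voom. Arg1, an arginine-degrading enzyme, had 150.3, 183 and 200.3 CPM in LPS cells at 18 h and 0, 0.228 and 0 CPM in LPS cells at 1 h, and Ass1, which rebuilds arginine, had a difference of 6.41 ± 0.29. The values of Arg1 give a change with time in LPS cells and not its response to LPS. Ptgs2, the inducible cyclooxygenase, ran the other way, with 55.4, 44.1 and 51.7 CPM in LPS cells, against 1.21, 0.914 and 1.13 CPM in unstimulated cells at 18 h and 306, 296 and 367 CPM in LPS cells, against 3.67, 1.05 and 0.959 CPM in unstimulated cells at 1 h and a difference of -1.80 ± 0.56, or -2.76 without replicate 1 of the unstimulated cells at 1 h.

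A further 22 genes had at most 3 counts over the 6 libraries at 1 h and were higher with LPS at 18 h by at least 2-fold. Nos2, the inducible nitric oxide synthase, had 429.8, 393 and 338 CPM in LPS cells, against 0, 0.152 and 0.643 CPM in unstimulated cells at 18 h and no read in the 6 libraries at 1 h. LPS cells at 18 h had at least 1700.0-fold more than LPS cells at 1 h, taking 3 counts over the 3 libraries as the floor. Cfb, encoding complement factor B, had 28.0, 24 and 30.1 CPM in LPS cells at 18 h and no read in the other 9 libraries, at least 170.1-fold above unstimulated cells at 18 h. Only 2 of the 22 passed the test of the difference of responses, since a response at 1 h cannot be estimated where both groups are near 0. The other 20 are therefore missing from the late class. These genes were chosen for their low counts at 1 h, so their low level at that time is no result. Their rise at 18 h is no result either. With so few counts in the other groups, only LPS cells at 18 h could carry them through the filter on low counts.

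Antigen presentation genes mostly had a larger response at 18 h. Of 18 genes tested, 16 had a higher and 1 a lower response at 18 h. With LPS at 1 h 8 were already called higher and none lower, and 15 fell in the late class, which asks for a 2-fold response. Tap1, the peptide transporter of MHC class I, had 561, 628 and 508 CPM in LPS cells, against 62.0, 62.2 and 63.5 CPM in unstimulated cells at 18 h and 53.1, 47.0 and 45.7 CPM in LPS cells, against 58.6, 57.9 and 52.2 CPM in unstimulated cells at 1 h. For Tap1 the difference was 3.39 ± 0.13. Cd274, encoding the checkpoint ligand PD-L1, had 4.49 ± 0.19, and Cd86, a costimulatory ligand, had 4.89 ± 0.33, with 79.7 ± 13.5 CPM in LPS cells and 3.64 ± 1.03 CPM in unstimulated cells at 18 h. Cd40, a receptor for T cell help, was the member with the lower response, -1.35 ± 0.25, raised at both times. Cd83, a marker of mature antigen-presenting cells outside that list, was opposite, with 6.72, 11.1 and 8.17 CPM in LPS cells, against 30.8, 30.5 and 46.6 CPM in unstimulated cells at 18 h and 1511, 1578 and 1598 CPM in LPS cells, against 83.4, 74.8 and 116 CPM in unstimulated cells at 1 h and a difference of -6.17 ± 0.25 (adjusted p = 4.99e-14).

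Surface receptors of macrophages changed mostly at 18 h, as all genes did, and in both directions. At 1 h 2 of 22 were higher (9.09%) and 2 lower (9.09%), against 9.49% and 10.7% of all genes. At 18 h 12 were higher (54.5%) and 8 lower (36.4%), against 31.4% and 30.8% of all genes. Marco, a scavenger receptor, had 322, 318 and 422 CPM in LPS cells, against 1.04, 0 and 0.804 CPM in unstimulated cells at 18 h and 0.207, 0.228 and 0.508 CPM in LPS cells, against 0.282, 0.300 and 0 CPM in unstimulated cells at 1 h. For Marco the difference was 8.68 ± 1.78, or 8.07 without replicate 2 of the unstimulated cells at 18 h. Marco could pass the filter on low counts only through LPS cells at 18 h, so a high level there was a condition of testing it. The Fc receptors Fcgr1, Fcgr4 and Fcgr2b had differences of 4.10, 4.62 and 4.83. Cx3cr1, the fractalkine receptor, had 6.54, 7.50 and 7.58 CPM in LPS cells, against 132, 129 and 101 CPM in unstimulated cells at 18 h and 55.2, 48.9 and 35.8 CPM in LPS cells, against 65.9, 48.5 and 40.7 CPM in unstimulated cells at 1 h. For Cx3cr1 the difference was -3.92 ± 0.26. Csf1r, the receptor of CSF-1, had a difference of 0.11 ± 0.11, which did not pass the test (adjusted p = 0.421).

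Cell-cycle genes were the clearest late decrease. All 25 S phase genes and all 24 genes of G2 and mitosis had a lower response at 18 h, with median log2 responses of -3.43 and -5.69 at 18 h and of -0.05 and -0.01 at 1 h. Top2a, the topoisomerase of dividing cells, had 2.73, 2.57 and 3.31 CPM in LPS cells, against 397, 366 and 323 CPM in unstimulated cells at 18 h and 328, 329.5 and 246 CPM in LPS cells, against 315, 328 and 240.3 CPM in unstimulated cells at 1 h. Ccnb2, a mitotic cyclin, had 0, 0 and 0.778 CPM in LPS cells, against 59.9, 59.3 and 54.0 CPM in unstimulated cells at 18 h and 58.3, 59.8 and 42.9 CPM in LPS cells, against 61.3, 59.3 and 48.7 CPM in unstimulated cells at 1 h. The groups overlapped at 1 h and were far apart at 18 h for both, with differences of -7.00 ± 0.24 and -7.60 ± 0.40. Rrm2, the ribonucleotide reductase subunit of S phase, had -6.64 ± 0.26, Foxm1, a factor that drives mitotic genes, -7.38 ± 0.36, and Mki67, the proliferation marker, -5.75 ± 0.24. With so few reads left in LPS cells at 18 h, the difference of Ccnb2 was -11.25 without replicate 3 and -6.99 without replicate 1 of that group, and that of Foxm1 was -8.25 without replicate 1. Kif14, a mitotic motor protein, had no read in LPS cells at 18 h, against 32.6, 26.1 and 24.1 CPM in unstimulated cells at 18 h.

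Genes for the repair of double-strand breaks and crosslinks were lower late as well: 24 of 28 had a lower and 2 a higher response at 18 h. Chek1, a checkpoint kinase, had 0.909, 0.214 and 0 CPM in LPS cells, against 15.8, 16.2 and 13.7 CPM in unstimulated cells at 18 h and 8.27, 9.36 and 5.59 CPM in LPS cells, against 7.62, 10.7 and 6.91 CPM in unstimulated cells at 1 h. For Chek1 the difference was -5.08 ± 0.51, or -6.81 without replicate 1 of LPS at 18 h. Fancd2, a core protein of crosslink repair, had -5.90 ± 0.41. Several of these genes are also known to be expressed mainly in dividing cells, and the part of the cell cycle in their decrease was not tested. p53 targets were mixed, 9 higher (34.6%) and 8 lower (30.8%) of 26, not far from the 27.0% and 26.3% of all genes. Cdkn1a, encoding the cell-cycle inhibitor p21, was raised at both times, with 737, 860.1 and 841 CPM in LPS cells, against 247, 236 and 219.8 CPM in unstimulated cells at 18 h and 1235, 1148 and 1349.7 CPM in LPS cells, against 264, 255 and 282 CPM in unstimulated cells at 1 h and a difference of -0.42 ± 0.12. Btg2 and Gadd45b had -2.09 ± 0.17 and -1.64 ± 0.16, whereas Ddb2, a DNA damage sensor, had 2.06 ± 0.14.

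Metabolic groups also changed mostly at 18 h, many of their genes by less than 2-fold. In the late class were 9 of 22 cholesterol synthesis, 2 of 25 ribosomal protein and 1 of 9 mitochondrial genome genes. Of 21 glycolysis genes 16 fell in no class, as did 9 of 15 of sterol efflux and LXR targets. Cholesterol synthesis genes had a lower response at 18 h in 15 of 22 and a higher one in 2, with differences of -2.96 for Stard4, a sterol carrier, and -2.78 for Idi1, an isomerase of the pathway. All 25 ribosomal protein genes had a lower response at 18 h, with a median of -0.76, and so did 8 of 9 genes of the mitochondrial genome (-0.77). Ribosomal protein genes have many processed copies, which makes their counts uncertain. In sterol efflux and LXR targets 8 of 15 were higher and 5 lower, with Nr1h3, encoding LXR-alpha, at 2.68 ± 0.16, Abca1, the cholesterol exporter, at 1.39 ± 0.23 and Lpl, lipoprotein lipase, at -2.81 ± 0.11. Of 21 glycolysis genes 10 were higher and 3 lower, counts that became 6 and 5 with library-size scaling, and Pfkfb3, a regulator of glycolytic flux, had 852, 703 and 762 CPM in LPS cells, against 32.4, 39.2 and 40.7 CPM in unstimulated cells at 18 h and 76.3, 67.4 and 88.4 CPM in LPS cells, against 62.8, 55.4 and 67.2 CPM in unstimulated cells at 1 h. For Pfkfb3 the difference was 4.04 ± 0.16.

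NAD+ metabolism, which the study's title names, moved late. Of 22 genes 12 had a higher and 3 a lower response at 18 h, and 4 were called higher at 1 h. Cd38, an NAD+-consuming ectoenzyme, had 168, 162 and 176 CPM in LPS cells, against 0.520, 0.609 and 0.161 CPM in unstimulated cells at 18 h and 0.207, 0.685 and 0.762 CPM in LPS cells, against 0, 0.450 and 0.768 CPM in unstimulated cells at 1 h, a difference of 8.04 ± 1.12 (adjusted p = 3.84e-06), which became 8.68 without replicate 1 and 7.33 without replicate 3 of the unstimulated cells at 1 h. Cd38 could pass the filter on low counts only through LPS cells at 18 h. A high level there was a condition of testing it, so these values are a description. Nampt, the salvage enzyme of NAD+, had 361, 375 and 378 CPM in LPS cells, against 104, 101 and 102 CPM in unstimulated cells at 18 h and 135, 129.9 and 119 CPM in LPS cells, against 98.2, 92.5 and 114 CPM in unstimulated cells at 1 h. For Nampt the difference was 1.52 ± 0.12. Parp14 had 2.45 ± 0.19 and Parp1, the DNA damage-dependent poly-ADP-ribose polymerase, -1.35 ± 0.13. Antioxidant genes had a higher response at 18 h in 15 and a lower one in 6 of 27. Hmox1, heme oxygenase 1, had 5905, 6577 and 5196 CPM in LPS cells, against 482, 486 and 503 CPM in unstimulated cells at 18 h and 363, 369 and 369 CPM in LPS cells, against 383, 414 and 401 CPM in unstimulated cells at 1 h. For Hmox1 the difference was 3.71 ± 0.12. Sod2 and Slc7a11, the mitochondrial superoxide dismutase and the cystine importer, were raised at both times and more at 18 h, by 1.79 ± 0.14 and 2.28 ± 0.20. In the phagocyte NADPH oxidase 7 of 10 genes were higher and 2 lower, with Cybb, the catalytic subunit, at 1.30 ± 0.12. Of 22 lysosomal genes 11 were higher and 5 lower, with a median of 0.29.

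**Figure D3:**
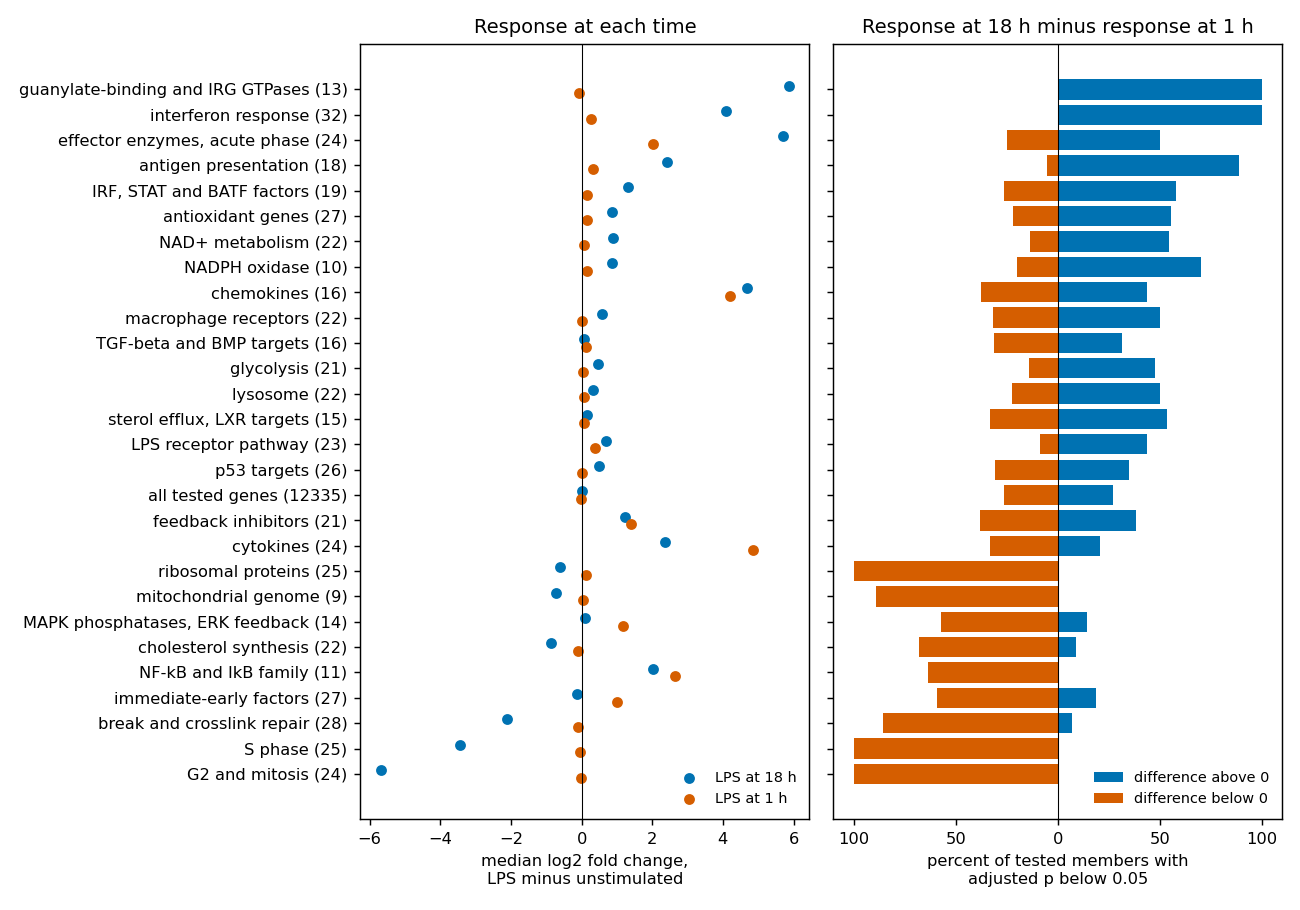
The 27 gene lists and all tested genes, with the number tested in parentheses. The left panel gives the median log2 fold change of LPS against unstimulated cells at 18 h and at 1 h. The right panel gives the percent of members whose difference of responses was above or below 0 with an adjusted p below 0.05, for which all genes stand at 27.0 and 26.3. Interferon-response genes and GTPases are entirely above 0, cell-cycle and ribosomal genes entirely below.

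The transient decreases were rich in 1 gene family. Numbered Zfp genes, which mostly encode zinc finger proteins of the KRAB repressor family, made up 71 of the 241 (29.5%), against 291 of all genes tested (2.36%). The family also held 4 of the 56 sustained decreases (7.14%) and 2 of the 28 opposite genes lower at 1 h (7.14%). It was picked out after its values were seen, and its shares are a description. Of the 291, 150 were lower and 14 higher with LPS at 1 h, and 40 were lower and 59 higher at 18 h, with a median log2 response of 0.11 at 18 h and -0.64 at 1 h. The difference was higher for 143 and lower for 20. Zfp60 had 6.18, 7.29 and 6.61 CPM in LPS cells, against 8.14, 8.68 and 9.32 CPM in unstimulated cells at 18 h and 1.24, 1.37 and 1.02 CPM in LPS cells, against 6.92, 9.16 and 6.33 CPM in unstimulated cells at 1 h, a difference of 2.22 ± 0.35. Zfp707 and Zfp157 had differences of 2.85 ± 0.54 and 2.21 ± 0.32, on similarly low counts, and Zfp707 had 3.63 without replicate 2 of LPS at 1 h.

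Targets and inhibitors of TGF-beta and BMP signalling were mixed. With LPS at 1 h 5 of 16 were higher and 5 lower, with a median log2 response of 0.12, and 3 fell among the transient decreases. Id1, an inhibitor of helix-loop-helix factors, had 19.4, 26.8 and 13.2 CPM in LPS cells, against 27.0, 36.7 and 21.5 CPM in unstimulated cells at 18 h and 9.30, 9.13 and 7.87 CPM in LPS cells, against 41.1, 46.7 and 47.0 CPM in unstimulated cells at 1 h. For Id1 the difference was 1.81 ± 0.30. Smad6 and Smad7, the inhibitory SMADs, had 2.57 ± 0.36 and 0.97 ± 0.26. Over the 16 genes of that list the response at 18 h was higher in 5 (31.2%) and lower in 5 (31.2%). Over all genes tested these shares were 27.0% and 26.3%. Id3 and Tgfbr1, with lower responses at 18 h, had -2.23 and -1.82.

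Genes that reversed the other way, lower with LPS at 1 h and higher at 18 h, numbered 28. Rhov, a small GTPase, had 74.9, 89.4 and 63.8 CPM in LPS cells, against 15.6, 14.2 and 16.9 CPM in unstimulated cells at 18 h. At 1 h it had 5.99, 7.99 and 7.87 CPM in LPS cells, against 38.1, 34.8 and 42.8 CPM in unstimulated cells. LPS cells were above unstimulated cells at 18 h and below them at 1 h in every library, a difference of 4.69 ± 0.21 (adjusted p = 2.13e-13). Il21r, the IL-21 receptor, had 144, 159 and 142 CPM in LPS cells, against 10.6, 14.6 and 12.4 CPM in unstimulated cells at 18 h and 6.82, 7.54 and 6.60 CPM in LPS cells, against 18.9, 14.1 and 17.8 CPM in unstimulated cells at 1 h. For Il21r the difference was 4.83 ± 0.20. Gpr35, a G protein-coupled receptor, had 4.17 ± 0.31, Gadd45g, a stress gene, 3.21 ± 0.21 and Osgin1, an oxidative stress gene, 2.75 ± 0.19.

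Sustained decreases were few, 56 genes. Sh2d3c, an adaptor protein, had 6.91, 4.93 and 5.64 CPM in LPS cells, against 23.4, 26.4 and 30.1 CPM in unstimulated cells at 18 h and 9.51, 10.0 and 10.2 CPM in LPS cells, against 29.1, 28.8 and 35.7 CPM in unstimulated cells at 1 h, with no called difference (-0.53 ± 0.23, adjusted p = 0.0634). It passed the test under 6 of the alternatives. Ier5l had the largest early decrease of the sustained genes, with 0.727, 1.93 and 0.778 CPM in LPS cells, against 9.70, 10.4 and 12.9 CPM in unstimulated cells at 18 h and 1.45, 0.913 and 1.02 CPM in LPS cells, against 25.1, 29.3 and 29.4 CPM in unstimulated cells at 1 h, and its difference of 1.30 ± 0.52 (adjusted p = 0.0411) did not pass the test under 11 of the alternatives, and was smallest without replicate 2 of LPS at 18 h (0.73, adjusted p = 0.363).

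The classes also differed in gene features that the contrast did not use. The AU-rich 7-base motif TATTTAT, part of the site that tristetraprolin binds, was present in the annotated 3′UTR of 28.1% of 10961 coding genes tested. It was present in 53.1% of 143 transient raised genes, in 57.5% of 80 sustained genes with a smaller response at 18 h, in 38.9% of 90 sustained genes with no called difference, in 27.6% of 87 sustained genes with a larger response at 18 h and in 21.7% of 892 late raised genes. Of the opposite genes higher at 1 h, 22 of 36 (61.1%) held it. The number of matches per kb of 3′UTR was 0.528, 1.03, 0.553, 0.283 and 0.248 in the first 5 of these sets in that order, and 0.288 over all genes. By list, 18 of 24 cytokine genes, 16 of 27 immediate-early factors and 13 of 21 feedback inhibitors held it, against 8 of 32 interferon-response genes, 2 of 18 antigen presentation genes and 0 of 25 ribosomal protein genes. The median gene span was 10.5 kb for sustained genes with a smaller response and 17.4 kb for transient raised genes, against 20.9 kb over all genes, and late lowered genes had 27.3 kb.

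**Figure D4:**
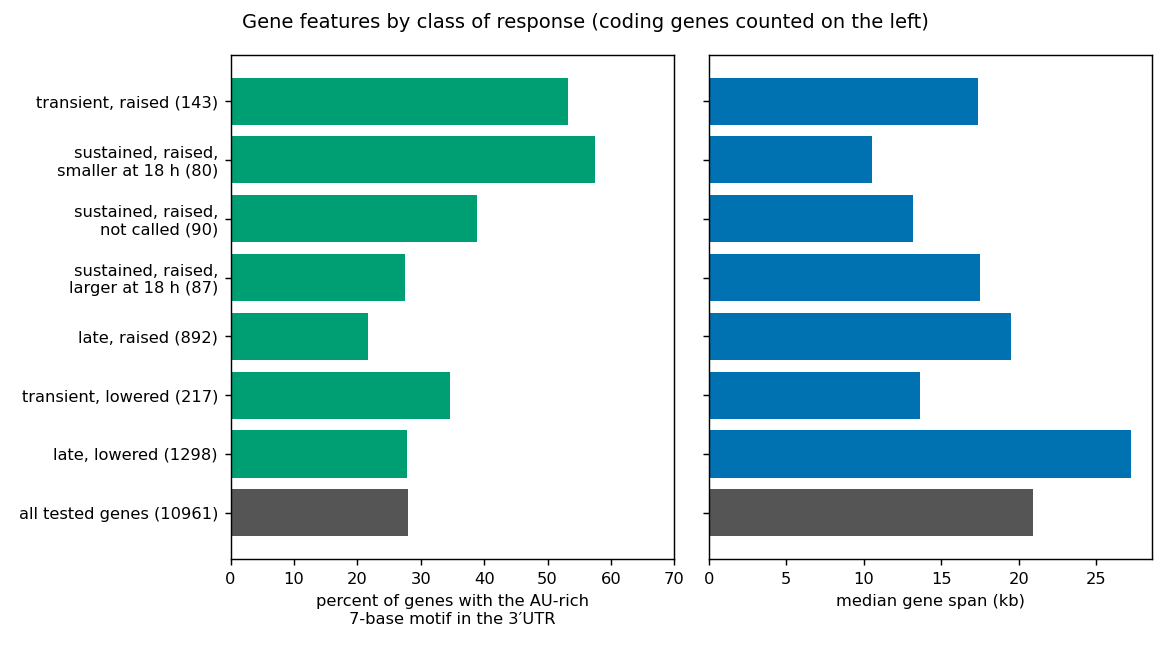
The left panel gives the percent of coding genes with at least 1 match of the AU-rich motif in the 3′UTR, by class, and the right panel the median gene span in kb. Of the sets drawn, which leave out the opposite and the sustained lowered genes, sustained genes with a smaller response at 18 h (57.5%) and transient raised genes (53.1%) are highest for the motif, and late raised genes (21.7%) are lowest.

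The stretches below show that motif in 4 of the early genes named above. Each is the 30-base window of the GENCODE M21 3′UTR with the most matches, on the coding strand 5′ to 3′, with every match of TATTTAT in capitals; matches overlap.
Tnf, chr17:35199678-35199707 (GRCm38, minus strand), 5 matches: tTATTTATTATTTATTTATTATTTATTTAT
Cxcl2, chr5:90905324-90905353 (GRCm38, plus strand), 4 matches: actTATTTATTTATctatgTATTTATTTAT
Cxcl1, chr5:90892603-90892632 (GRCm38, plus strand), 4 matches: agggtccTATTTATTTATgTATTTATTTAT
Ier3, chr17:35822477-35822506 (GRCm38, plus strand), 2 matches: tccgtgtctaattaaTATTTATgTATTTAT
Tnf, Cxcl2 and Cxcl1 had smaller responses at 18 h, and the difference of Ier3 did not pass the test. The 4 genes are examples, and a part of these matches in the responses was not tested.

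Promoters were searched on both strands from 250 bases before to 50 bases after the RefSeq start, for which 80.7% of the coding genes tested had a sequence. The kappaB motif, bound by NF-kB, was found in 12.6% of transient raised and 13.9% of sustained raised genes, against 5.11% of all promoters. GAAANNGAA, a core of the interferon-stimulated response element, was found in 26.7% of sustained genes with a larger response at 18 h, in 8.33% of sustained genes with no called difference and in 5.88% of transient raised genes, against 7.39% of all promoters. TATAAA was found in 18.8% of sustained raised genes, against 6.67% of all. A promoter sequence was at hand for under 80% of the late and of the upward opposite genes, so no share is given for them. A match of letters does not show that a factor binds there. The 150 bases before the start are printed for 2 early genes with a kappaB match in capitals (Cxcl1, Ier3) and 2 interferon-response genes with GAAANNGAA or its reverse complement in capitals (Ifit1, Isg15). All are from RefSeq on GRCm38.p6, on the coding strand 5′ to 3′.
Cxcl1, chr5:90891095-90891244 (plus strand): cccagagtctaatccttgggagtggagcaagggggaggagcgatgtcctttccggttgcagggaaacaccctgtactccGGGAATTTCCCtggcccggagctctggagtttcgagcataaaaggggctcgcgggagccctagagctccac
Ier3, chr17:35821563-35821712 (plus strand): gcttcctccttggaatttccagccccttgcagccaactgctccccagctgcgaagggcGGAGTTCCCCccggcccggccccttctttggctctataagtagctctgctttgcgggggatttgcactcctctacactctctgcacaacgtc
Ifit1, chr19:34640739-34640888 (plus strand): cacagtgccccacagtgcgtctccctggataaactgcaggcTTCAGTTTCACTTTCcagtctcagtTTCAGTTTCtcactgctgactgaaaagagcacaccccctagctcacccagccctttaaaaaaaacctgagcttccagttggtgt
Isg15, chr4:156200819-156200968 (minus strand): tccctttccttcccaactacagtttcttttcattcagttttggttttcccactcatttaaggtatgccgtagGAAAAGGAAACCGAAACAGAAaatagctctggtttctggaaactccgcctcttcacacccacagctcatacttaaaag
In Cxcl1 and Ier3 the match lies 71 and 92 bases before the start, with a second, overlapping match in Cxcl1. In Ifit1 and Isg15 the matches begin 109 and 78 bases before the start, with 3 in each, several of them overlapping.

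Markers of other cells also moved with LPS at 18 h. The summed markers of stromal and endothelial cells were 12.5 to 17.7 CPM in LPS cells at 18 h, against 1.61 to 2.29 CPM in unstimulated cells at 18 h, 1.60 to 2.54 CPM in LPS cells at 1 h and 1.20 to 3.10 CPM in unstimulated cells at 1 h. Of its 6 markers only Pecam1, an adhesion molecule that leukocytes also carry, passed the filter on low counts, with 10.4 to 13.6 CPM in LPS cells at 18 h and a difference of 3.90 (adjusted p = 1.46e-05), and Cdh5 was at 1.27 to 2.53 CPM there. Pecam1 could pass that filter only through LPS cells at 18 h, so a high level there was a condition of testing it. The summed markers of erythroid cells and megakaryocytes were 229 to 339 CPM in LPS cells at 18 h, against 141 to 155 CPM in unstimulated cells at 18 h. Nearly all of that was Pf4, with 228 to 337 CPM in LPS cells at 18 h and a difference of 0.76 (adjusted p = 3.56e-04). Neutrophil markers summed to 107 to 167 CPM in LPS cells at 18 h and 102 to 170 CPM in the other groups. Their members moved apart: of 5 tested, S100a8 had a higher response at 18 h (1.30, adjusted p = 8.6e-04, edgeR), and Mpo (-4.75), Camp (-1.96) and Ngp (-1.24) had lower ones, while Ly6g and Elane were at 1.27 CPM or less in all libraries. The part of such cells in the results was not tested.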

How the data were processed

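The deposited files, 1 for each library, list whole-number read counts by Ensembl gene identifier, with totals that differ between libraries. The submitters' processing notes name STAR, featureCounts, DESeq2, deepTools and GRCm38, without versions. Strand setting, annotation release and treatment of reads with several alignments are not given in the sources used here. The labels name a stranded kit, but with the setting not stated, reads of genes that overlap on opposite strands cannot be told apart, which touches 25 of the 119 genes named. Symbols and positions are from GENCODE M21.

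Genes were filtered with filterByExpr (minimum count 10), which kept 12335 of 43629, and scaled by TMM. The 4 groups were fitted with edgeR 4.0.16 in R 4.3.3 by quasi-likelihood, and p-values, two-sided, were adjusted by Benjamini-Hochberg over all genes tested. CPM are counts scaled to 1000000 per TMM-scaled library. The common biological coefficient of variation was 0.0805. Fold changes are log2, and a group with 3 counts or fewer is given by its CPM or by a bound at 3 counts. The error of a difference is its size divided by the square root of the quasi-likelihood F statistic. It is an approximate standard error, least certain where a group is near 0. Named genes are the 10 largest differences in each direction, 5 per class, up to 4 per list and a fixed set, at 5 CPM or more in some group; some genes that this rule covers are not reported here. The members, lists and this rule were chosen with earlier results of these data known. On simulated counts over 11889 genes the test recovered 16 of 67 genes changed 1.5-fold, 50 of 67 changed 2-fold and 63 of 66 changed 4-fold in the difference of responses, with 9 false among 138 calls. The simulation changed only these genes, only in LPS cells at 18 h, with means taken from unstimulated cells at 1 h. In the data 53.3% of genes were called, so these rates need not carry over. Other scalings, filters, tools (DESeq2 1.42.0, limma 3.58.1), limits and sets of libraries were tried as alternatives.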

Additional observations from a re-analysis of the deposited data

Results flagged for a closer look

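The response to LPS differed between 18 h and 1 h, by a test of the difference itself (edgeR), with a higher response at 18 h in 3333 genes and a lower one in 3243. Of the genes named, 11 responded in contrary directions at the 2 times. Those lower with LPS at 18 h and higher at 1 h had differences of -7.93 for Egr2, -6.17 for Cd83, -5.47 for Egr1, -5.42 for Nr4a1, -4.42 for Myc and -4.34 for Irf4 on the log2 scale. Those higher with LPS at 18 h and lower at 1 h had 4.83 for Il21r, 4.69 for Rhov, 4.17 for Gpr35, 3.21 for Gadd45g and 2.75 for Osgin1. The difference of each of the 11 stayed at an adjusted p below 0.05 without any 1 library.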

How the results depend on the processing

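The counts of the difference of responses stayed within 1.5 times of 3333 higher and 3243 lower genes under every alternative run; without 1 library at a time they ranged from 3038 to 3377 higher and from 3042 to 3486 lower. Of 376 recomputed counts of genes and classes, 343 stayed within 1.5 times of the reported value. Library-size scaling shifted the median response of all genes to -0.41 at 18 h and -0.19 at 1 h, and gave 3062 genes lower at 1 h, 1947 higher and 6738 lower at 18 h, 692 higher and 526 lower in unstimulated cells at 18 h against 1 h, and 133 sustained lower, 649 late higher and 2424 late lower genes; of the 1012 late raised genes 640 remained late under it. An adjusted p below 0.01 gave 832 genes lower at 1 h, and 101 higher and 410 lower in unstimulated cells at 18 h against 1 h.

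The class sizes depend on the limit that makes a response. At 1.5-fold there were 415 transient lower, 171 sustained lower, 1661 late higher, 84 opposite genes higher at 1 h and 117 lower at 1 h. At 4-fold there were 49 transient lower, 137 sustained higher, 4 sustained lower, 488 late higher, 701 late lower, 5 opposite genes higher at 1 h and 3 lower at 1 h. The comparison of unstimulated cells at 18 h and 1 h was the least stable, with 118 to 753 genes higher and 406 to 1148 lower without 1 library, lowest without replicate 1 of the unstimulated cells at 18 h and highest without replicate 2 of LPS at 18 h, against 368 and 811 with all.

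Libraries of different groups share replicate numbers. Deviations of same-numbered libraries correlated at -0.03 to 0.20 (10 of 18 pairs over 0.1). The labels do not say that a number marks a shared animal or batch, and pairing was to be assumed only where every pair exceeded 0.1, which was not met. The own number correlated best in 31 of 36 pairings of a library with another group, a hint from the data, not the design, that equal numbers share something. A fit with the replicate number as a block gave 594 genes higher in unstimulated cells at 18 h against 1 h and moved no other count by over 1.5 times; among named genes it took Sh2d3c past the threshold.

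Of 109 named genes with a fitted difference, 104 kept their call under every alternative run, 4 of them with a change of sign in a difference that was not called. The difference of Ccl2 turned to -0.013 and that of Csf1r to -0.14 with library-size scaling, and those of Il1a and Il1b turned to 0.48 and 0.53 with limma-voom. Without 1 library at a time Il1b ranged from -1.34 to 2.00, Il1a from -0.81 to 1.24 and Cxcl10 from -0.55 to 1.57. Calls changed in some alternative for Sh2d3c, Ier5l, Cxcl10, Socs3 and Fos, and the difference of Ier5l, 1.30 with all libraries, was 0.73 (adjusted p = 0.363, edgeR) without replicate 2 of LPS at 18 h. The cause was not tested. The 3 libraries per group limit all of these, and small differences can be missed. On simulated counts 16 of 67 differences of 1.5-fold were recovered. Far fewer genes changed there than were called in the data, so that rate need not hold for them.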
